A study of Saccharomyces cerevisiae with 4 samples.

Results

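The 10 genes described here serve growth on carbon compounds other than sugar, and their transcripts were measured in Saccharomyces cerevisiae in which the Snf1 kinase was, or was not, open to a chemical inhibitor. They were chosen by name, as every probe set whose platform gene symbol was PCK1, FBP1, ICL1, ICL2, MLS1, MDH2, IDP2, JEN1, ACS1 or ADY2. Each of the 10 genes had 1 probe set, out of 5656 genes and 9335 probe sets on the array. Transcripts were measured on 4 Affymetrix Yeast Genome S98 arrays, of which 2 came from strains expressing Snf1 and 2 from strains expressing Snf1-I132G, in which the kinase is sensitive to the pyrazolopyrimidine 2NM-PP1. Cells of both groups went from medium without uracil with 2% glucose into 2% raffinose with 0.05% glucose for 120 min and then received 25 µM 2NM-PP1 for 40 min. Each array was made from RNA pooled from 3 transformants. All 4 arrays come from cells with the inhibitor, so inhibition of the kinase and any effect of the I132G allele without it cannot be told apart. Nothing in the labels says that the 2 arrays of a group came from separate cultures, so p-values cover the variation among these 4 arrays alone, part or all of which may be technical.

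Yeast growing without fermentable sugar makes glucose phosphates by gluconeogenesis, in which phosphoenolpyruvate carboxykinase (PCK1) and fructose-1,6-bisphosphatase (FBP1) carry the steps that glycolysis cannot reverse. Acetate and lactate enter through membrane transporters (ADY2 and JEN1), and acetate is activated to acetyl-CoA by acetyl-CoA synthetase (ACS1). The glyoxylate cycle, with isocitrate lyase (ICL1), malate synthase (MLS1) and the cytosolic malate dehydrogenase (MDH2), turns acetyl-CoA into four-carbon acids. These genes are textbook examples of glucose repression, and their transcription without glucose needs Snf1, the yeast AMP-activated protein kinase, acting through the activators Cat8, Sip4 and Adr1 and against the repressor Mig1.

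The 10 genes had lower signals on both Snf1-I132G arrays than on both Snf1 arrays, and 9 of them fell by limma's test. On the linear scale the Snf1-I132G mean was 5.20% of the Snf1 mean for FBP1, 5.47% for PCK1 and 6.15% for IDP2. It was 12.1% for ADY2, 20.6% for JEN1 and 21.2% for MDH2, then 29.0% for MLS1, 33.0% for ACS1 and 34.9% for ICL1. ICL2, at 62.8%, did not pass. Over all tested probe sets 17.5% were called lower, 10.3% were called higher, and 41.0% were lower without overlap between the groups. Counted as genes, each at its brightest probe set, 1042 of 5199 were called lower, 473 higher, and 2362 were lower without overlap. The median log2 difference of the 10 genes was -2.17, against -0.16 over all 5199 tested genes. Of the 10 genes, 3 (FBP1, MLS1 and ADY2) reached the brightness filter of 35.01 only through their Snf1 arrays, and of the other 7 genes 6 fell. Signals here are from whole cultures, so fewer cells with a transcript and less transcript per cell cannot be told apart.

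**Figure D1:**
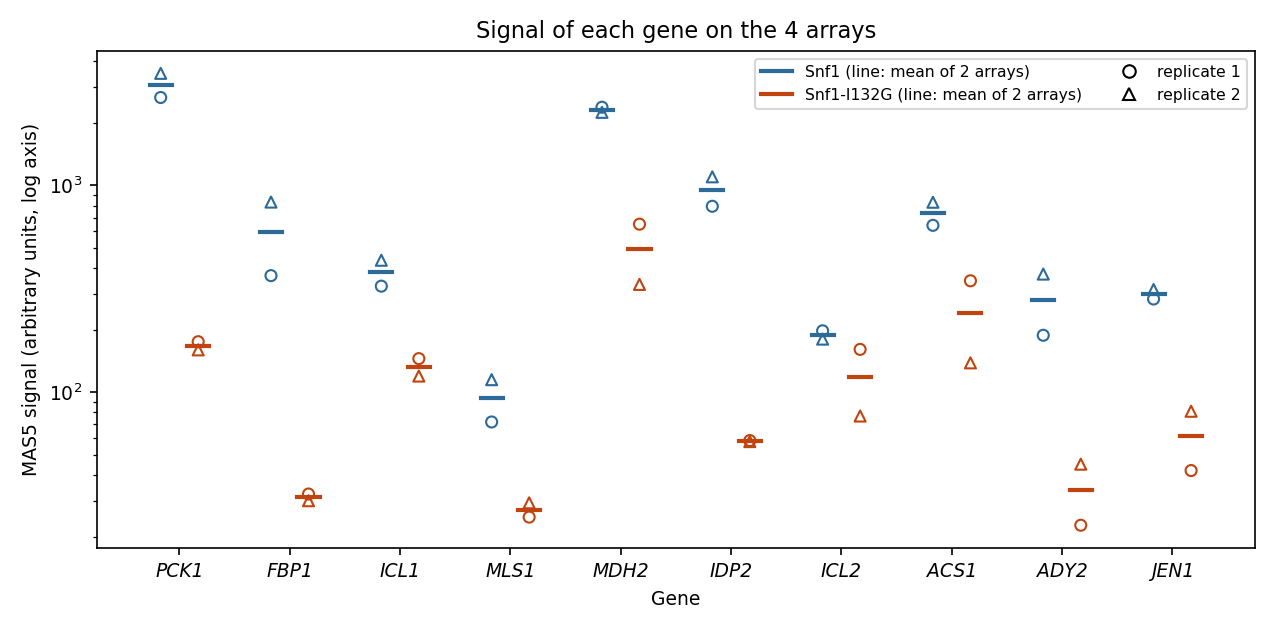
MAS5 signal (arbitrary units, log axis) of the 10 genes on each array, with circles for replicate 1, triangles for replicate 2 and a line for the mean of the 2 arrays of a group. For each gene both Snf1-I132G points lie below both Snf1 points, from 3071 to 168 in the mean for PCK1 and from 190 to 119 for ICL2; levels of different genes come from different probes and are not comparable.

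The gluconeogenic enzymes themselves were among the deepest falls. PCK1 had a signal of 2660.5 and 3481 on the 2 Snf1 arrays (replicates 1 and 2) and of 176 and 161 on the 2 Snf1-I132G arrays. The groups were 18.3-fold apart in their means, 3071 ± 580 against 168 ± 10.8 (SD, n = 2). On the scale used for testing, log2(signal + 16), the PCK1 difference (Snf1-I132G minus Snf1) was -4.06 ± 0.19 (SE, limma adjusted p = 0.0015), the 4th largest fall of the tested genes. FBP1 had 367 and 831 in Snf1 and 32.3 and 30.0 in Snf1-I132G. Its Snf1 arrays were 2.27-fold apart while its Snf1-I132G arrays lay near the 25th percentile of their arrays. The FBP1 difference was -3.60 ± 0.38 (limma adjusted p = 0.0040), the 13th largest, and with so dim a signal its size depended on the added constant, from -2.71 with 64 added to -4.11 with 1.

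All 3 genes of the cytosolic glyoxylate cycle fell, with the largest difference for the malate dehydrogenase gene. ICL1 had 326 and 435 in Snf1 and 146 and 120 in Snf1-I132G, with a difference of -1.41 ± 0.21 (limma adjusted p = 0.0089). MLS1 was dim throughout, at 72.0 and 115 in Snf1 and 25.0 and 29.3 in Snf1-I132G, and both of the latter lay below the 25th percentile of their arrays. Its difference was -1.32 ± 0.25 (limma adjusted p = 0.016). That size rests partly on the added constant, being -1.72 with 1 added and -0.78 with 64, and without Snf1 replicate 2 the call was lost at -1.03 (limma adjusted p = 0.063). MDH2, which makes oxaloacetate in the cytosol, had 2388 and 2256 in Snf1 and 649.96 and 333 in Snf1-I132G. The Snf1 arrays of MDH2 were close together and the Snf1-I132G arrays 1.95-fold apart, and the difference was -2.28 ± 0.31 (limma adjusted p = 0.0071). The 95% intervals of the 3 differences were -3.06 to -1.50 for MDH2, -1.93 to -0.88 for ICL1 and -1.94 to -0.70 for MLS1, so they overlap.

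IDP2 and ICL2 sit beside the cycle. IDP2, the cytosolic NADP-dependent isocitrate dehydrogenase, had 793 and 1101 in Snf1 and 58.5 and 57.8 in Snf1-I132G. The 2 Snf1-I132G arrays were nearly equal, and the difference was -3.68 ± 0.21 (limma adjusted p = 0.0015), the 8th largest fall of the tested genes. The size of the IDP2 difference depended on the constant, from -3.03 with 64 added to -3.98 with 1. ICL2, a mitochondrial 2-methylisocitrate lyase of propionate breakdown that is related to ICL1, had 198 and 181 in Snf1 and 161 and 76.9 in Snf1-I132G. The groups did not overlap, but Snf1-I132G replicate 1 was close to the Snf1 arrays. The ICL2 difference was -0.68 ± 0.33 with a 95% interval of -1.49 to 0.13 (limma adjusted p = 0.18). With same-numbered arrays paired it passed (limma adjusted p = 0.027), as it did without Snf1-I132G replicate 1, at -1.15 (0.023), and without Snf1-I132G replicate 2 it was at -0.21 (0.49).

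Carbon uptake and activation fell as well. ADY2, the acetate transporter gene now also named ATO1, had 189 and 373 in Snf1 and 22.8 and 45.0 in Snf1-I132G. Replicate 2 was about as far above replicate 1 in Snf1 (1.98-fold) as in Snf1-I132G (1.97-fold), and the difference was -2.54 ± 0.38 (limma adjusted p = 0.0086). Its size depended on the constant, from -1.77 with 64 added to -3.01 with 1. JEN1, the lactate and pyruvate permease gene, had 283 and 314 in Snf1 and 41.9 and 81.1 in Snf1-I132G, with a difference of -2.07 ± 0.28 (limma adjusted p = 0.0070). ACS1 had 642 and 829.6 in Snf1 and 346 and 139 in Snf1-I132G. Its Snf1-I132G arrays were 2.49-fold apart, the widest gap of the 10 genes, and the difference was -1.65 ± 0.41 (limma adjusted p = 0.034). The ACS1 call was the least secure of the 9. It was lost with quantile normalization (-1.49, adjusted p = 0.064), with each array centred on its median (-1.46, 0.052) and without Snf1 replicate 2 (-1.47, 0.090). Without Snf1-I132G replicate 2 the ACS1 difference was -1.04.

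In order of the log2 difference the genes ran PCK1, IDP2, FBP1, ADY2, MDH2, JEN1, ACS1, ICL1, MLS1 and ICL2, and the 95% intervals of neighbours in that order overlapped throughout. With 16 added, the intervals of PCK1 (-4.52 to -3.59) and IDP2 (-4.20 to -3.16) lay wholly below those of MDH2, JEN1, ACS1, ICL1, MLS1 and ICL2. Ranks of the fall among the 5199 tested genes ran from 4 for PCK1 to 298 for MLS1 among the genes that fell, and ICL2 ranked 1058.

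**Figure D2:**
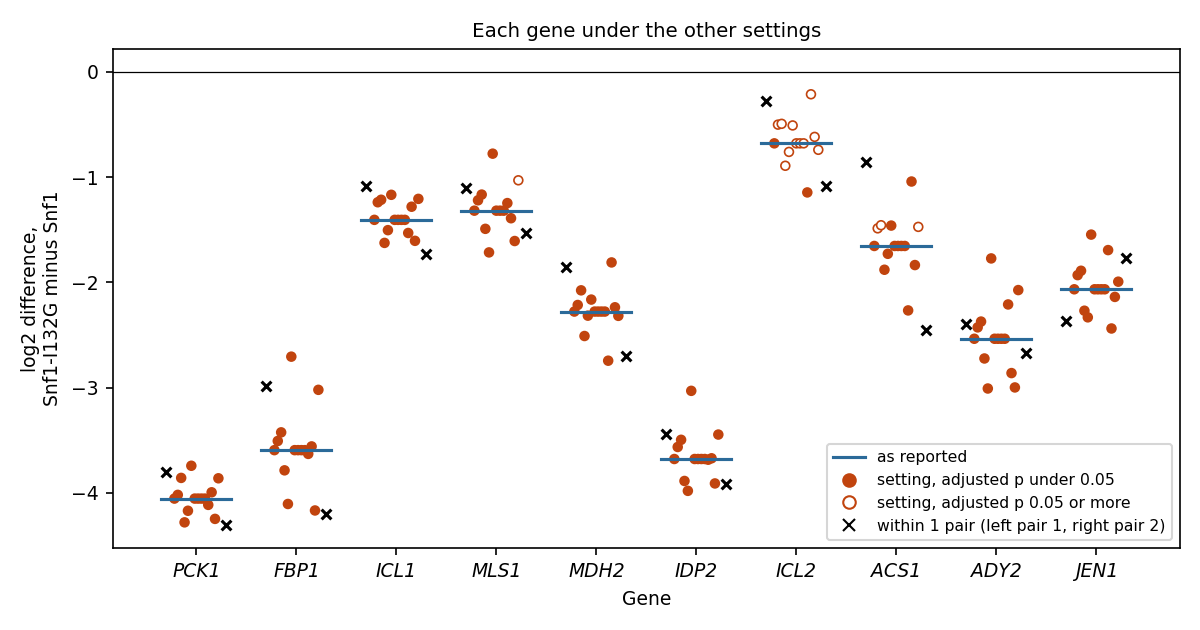
Log2 difference (Snf1-I132G minus Snf1) of each of the 10 genes as reported (line), under the other scalings, constants, filters, fits and left-out arrays (circles, filled where the adjusted p was under 0.05) and within each pair of same-numbered arrays (crosses). All values are below 0, PCK1 stays between -4.31 and -3.74, and open circles appear for MLS1, ICL2 and ACS1.

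The same-numbered arrays of the groups share a string in their file labels, and this may mark a shared run, although no label states it. The differences were therefore also taken within each pair. Of the 10 genes 8 were at least 2-fold lower in both pairs, against 6.99% of the tested probe sets and 421 of the 5199 tested genes. The fall was larger in pair 2 for 9 of the 10 genes, JEN1 being the exception, and for 66.5% of the 1219 probe sets called lower. FBP1 went from -2.99 in pair 1 to -4.20 in pair 2 and PCK1 from -3.80 to -4.31. The widest gap was that of ACS1, at -0.86 in pair 1 and -2.45 in pair 2, and ICL2 was at -0.27 and -1.08. JEN1 was at -2.37 and -1.77. With the pair as a block all 10 genes fell, against 28.6% of the tested probe sets called lower in that fit.

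**Figure D3:**
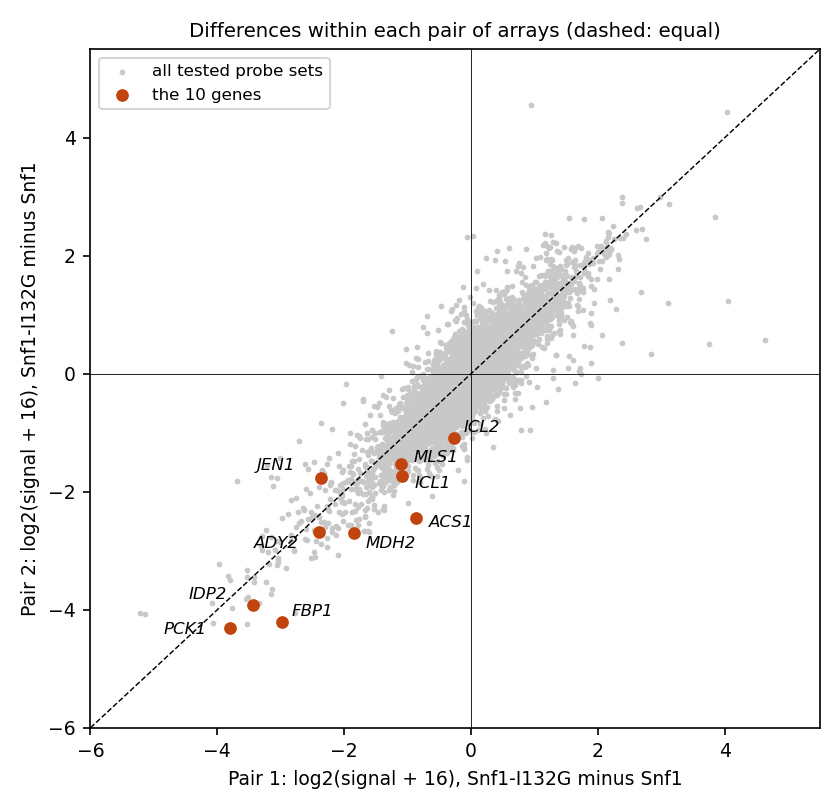
Log2(signal + 16) difference, Snf1-I132G minus Snf1, within pair 1 (horizontal) and pair 2 (vertical) for all 6956 tested probe sets (grey) and the 10 genes (orange). The genes lie in the lower left quadrant and, apart from JEN1, below the dashed line of equality.

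Several of the genes have a relative that carries out the same or a like reaction in another compartment or pathway, and in 8 of 9 such pairings the difference of the relative was less negative. IDP1, the mitochondrial isocitrate dehydrogenase gene, had 1523 and 1334 in Snf1 and 1701 and 2271 in Snf1-I132G, a difference of 0.46 ± 0.20 (limma adjusted p = 0.14), while the peroxisomal IDP3 fell by 0.71 ± 0.17 (adjusted p = 0.034). The IDP3 call was absent with quantile normalization (-0.55, adjusted p = 0.055), with median centring (-0.53, 0.067), without a filter (0.051) and in each fit that left out an array (0.065 to 0.20). The IDP2 to IDP1 ratio changed by -4.14 log2 units between the groups and the IDP2 to IDP3 ratio by -2.97. MDH1, the mitochondrial malate dehydrogenase gene, and MDH3, the peroxisomal one, both fell, at -1.34 ± 0.20 and -1.30 ± 0.16 (limma adjusted p = 0.0081 and 0.0056). MDH2 changed against them by -0.93 and -0.98. ACS2, the acetyl-CoA synthetase gene of glucose-grown cells, had 574 and 377 in Snf1 and 590.2 and 479 in Snf1-I132G, so its groups overlapped, and its difference was 0.19 ± 0.25 with a 95% interval of -0.42 to 0.80. Its sign turned with centring on hybridization controls, at -0.04. The ACS1 to ACS2 ratio changed by -1.84, from -0.90 in pair 1 to -2.78 in pair 2.

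DAL7, the malate synthase gene of allantoin breakdown, was dim, at 24.2 and 36.0 in Snf1 and 47.5 and 34.2 in Snf1-I132G, with a difference of 0.30 ± 0.23 (limma adjusted p = 0.37). MLS1 changed against DAL7 by -1.62 and ICL1 against ICL2 by -0.73. The acetate transporter relatives split. ATO2 fell with ADY2, from 1342 and 1157 to 265 and 137, a difference of -2.60 ± 0.31 (limma adjusted p = 0.0051), and the ratio of ADY2 to ATO2 changed by 0.07 with pair values of -0.13 and 0.26. ATO3, linked to ammonium export, had 855 and 1245 in Snf1 and 1031 and 1415 in Snf1-I132G, and ADY2 changed against it by -2.76. All 9 ratios were tested with an exact two-sided permutation test over the 4 arrays, which cannot go below p = 0.333. It gave 0.333 for 8 of them (0.375 adjusted over the 9) and 1 for ADY2 against ATO2, and with so few arrays it could not have called any of them, so the ratios are given as values alone. Of the 8 relatives that are not among the 10 genes 4 fell and 4 did not pass, against 17.5% of all tested probe sets called lower. With quantile normalization, with median centring or without a filter 3 fell, the IDP3 call being absent.

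**Figure D4:**
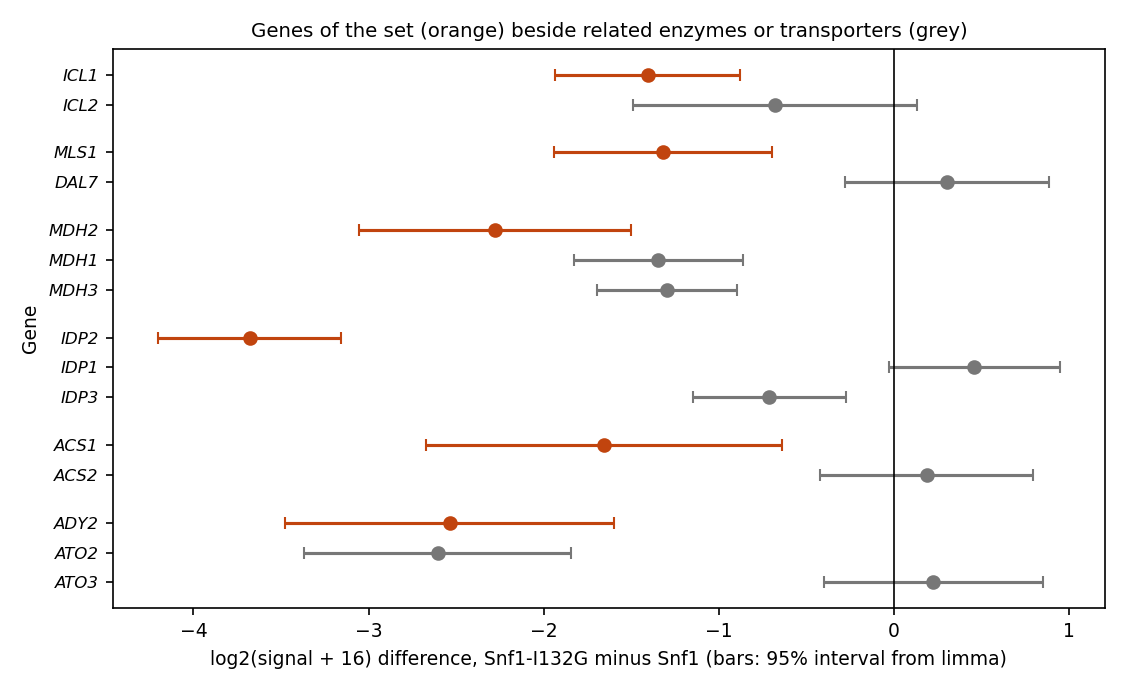
Log2(signal + 16) difference, Snf1-I132G minus Snf1, with its 95% interval from limma for 6 of the 10 genes (orange) and their relatives (grey; ICL2 is also among the 10). IDP2 at -3.68 stands apart from IDP1 at 0.46, while ADY2 at -2.54 and ATO2 at -2.60 overlap.

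Of 14 transcription factors linked to these promoters 3 fell, a share near the 17.5% of all tested probe sets called lower. Their median log2 difference was -0.39, against -0.16 over all tested genes. CAT8, the zinc-cluster activator of gluconeogenic genes, went from 276 and 293 to 11.2 and 10.8. Both Snf1-I132G signals of CAT8 lay below the 25th percentile of their arrays, and it reached the brightness filter only through its Snf1 arrays. Apart from CAT8 the falls were those of HAP4 and ADR1. HAP4, the activating subunit of the respiratory Hap complex, went from 1753 and 1799 to 208 and 318, by -2.71 ± 0.22 (limma adjusted p = 0.0026). ADR1, the activator of ACS1, ADY2 and other genes of ethanol and fatty acid use, went from 231 and 246 to 37.1 and 44.4. SIP4, the other activator that binds the same promoter element as Cat8, was at 23.2 and 29.9 in Snf1 and 41.8 and 76.1 in Snf1-I132G, so that its groups separated the other way. Both Snf1 signals of SIP4 lay below the 25th percentile of their arrays, and it reached the filter only through its Snf1-I132G arrays. MIG1 had 406 and 568 in Snf1 and 105 and 267 in Snf1-I132G, a difference of -1.42 ± 0.42 (adjusted p = 0.056). RDS2, a further regulator of gluconeogenic genes, was at -0.69 ± 0.20 (0.055), and OAF1 and PIP2, of fatty acid use, at -0.52 ± 0.16 (0.060) and -0.39 ± 0.16 (0.13). HAP2, HAP3, HAP5, ERT1, MIG2 and MIG3 lay between -0.39 and 0.11 and did not pass. With the pair as a block 6 factors fell, against 28.6% of probe sets called lower in that fit, and 1, SIP4, rose, against 19.5% called higher. With centring on hybridization controls, where 2049 of the 6956 probe sets were lower, 8 factors fell, and without Snf1-I132G replicate 2 there were 5.

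Genes that supply or use the intermediates of the glyoxylate cycle were mostly lower. Of 9 tested partners 7 fell and 1 rose (median -1.29), against 17.5% of all tested probe sets called lower and 10.3% called higher. SFC1 and CIT3, with Snf1-I132G means of 17.8 and 21.3, reached the brightness filter only through their Snf1 arrays. Apart from them the falls were those of ACO1, AGX1, ODC1, CIT1 and FUM1. SFC1, the carrier that brings cytosolic succinate into mitochondria in exchange for fumarate, went from 481 and 690.5 to 13.8 and 21.9. ACO1, the aconitase gene, went from 3711 and 2917 to 477 and 283, and AGX1, which makes glycine from glyoxylate, from 4007 and 3900.1 to 629.7 and 777 (difference -2.47 ± 0.17, limma adjusted p = 0.0018). ODC1, a carrier of oxodicarboxylates, fell, at -2.51 ± 0.17 (0.0018), as did CIT1 at -1.29 ± 0.15 (0.0049) and FUM1 at -1.10 ± 0.16 (0.0079). CIT3 fell at a dim signal, by 0.81 (limma adjusted p = 0.041), and its call was absent with quantile normalization (-0.75, adjusted p = 0.066), with median centring (-0.67, 0.063), without a filter (0.053) and in each fit that left out an array (0.065 to 0.19), which left 6 falls. CIT2, the peroxisomal citrate synthase gene, rose from 1064 and 1167 to 1714 and 2808, by 0.97 ± 0.26 (limma adjusted p = 0.042). That call was absent with centring on hybridization controls, without a filter, and without Snf1-I132G replicate 2, Snf1 replicate 1 or Snf1 replicate 2. DIC1, a dicarboxylate carrier gene, was at 0.92 ± 0.42 (adjusted p = 0.16).

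Acetyl-CoA supply and its carnitine shuttle gave 6 falls and 1 rise among 9 tested genes (median -2.00). Of all tested probe sets 17.5% were called lower and 10.3% higher. ALD4, the mitochondrial acetaldehyde dehydrogenase gene, went from 7381 and 6136 to 904 and 833. ALD6, the cytosolic one, went from 4151 and 5075 to 306 and 1421, so its Snf1-I132G arrays were 4.64-fold apart, and fell by 2.76 ± 0.66 (limma adjusted p = 0.032). A further ALD6 probe set, at a mean of 9.79 in Snf1-I132G and 7.10 in Snf1, was below the filter. ACH1, which transfers CoA between acetate and succinate, fell by 2.00 ± 0.20 (0.0035). The carnitine acetyltransferase genes CAT2 and YAT1 fell, at -1.05 ± 0.22 (0.020) and -2.07 ± 0.52 (0.035), whereas YAT2 was at 0.24 ± 0.29 (0.57) and the carrier gene CRC1 at -1.15 ± 0.39 (0.082). ADH2 fell as well. ALD5, a minor mitochondrial aldehyde dehydrogenase gene, rose from 463 and 709 to 1889 and 2181, by 1.80 ± 0.24 (limma adjusted p = 0.0065). Without Snf1 replicate 2 the list had 3 falls, the calls of ALD6, CAT2 and YAT1 being absent. The CAT2 call was also absent without Snf1 replicate 1, and the YAT1 call without a filter.

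Of 9 tested genes for enzymes that run in both glycolysis and gluconeogenesis, 0 fell by limma's test, against 17.5% of all tested probe sets, and 1 rose, a share near the 10.3% called higher. The gene that rose was TDH1, for a glyceraldehyde-3-phosphate dehydrogenase, by 0.66 ± 0.18 (limma adjusted p = 0.046), and TDH2 had no probe set of its own. The differences of the 9 ran from 0.34 for TDH3 to 0.68 for ENO2, with a median of 0.48. They stayed above 0 under every scaling, but their size depended on it. With quantile normalization they ran from 0.03 for TDH3 to 0.33 for TDH1. With centring on hybridization controls they ran from 0.10 for TDH3 to 0.44 for ENO2, and with median centring from 0.55 to 0.88. TDH3, ENO1 and ENO2 were read on probe sets that near-identical genes may share. With the pair as a block 8 rose, against 19.5% of probe sets called higher in that fit. The TDH1 call was absent with quantile normalization, with centring on hybridization controls, without a filter, without the intensity trend and in each fit that left out an array.

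Phosphofructokinase and the main pyruvate kinase, which run against gluconeogenesis, had genes that rose. PFK1 and PFK2, the subunits of phosphofructokinase, went from 3827 and 2930.1 to 8404 and 7171 and from 4576 and 3514 to 10095 and 8465. Their differences were 1.21 ± 0.20 and 1.20 ± 0.20 (limma adjusted p = 0.011 for each). CDC19, the main pyruvate kinase gene, rose by 0.81 ± 0.20 (0.033), and PYK2, the glucose-repressed one, was at 0.23 ± 0.21 (0.45). The CDC19 call was absent with centring on hybridization controls (0.58, adjusted p = 0.10) and without a filter (0.050), which left 4 rises in the list, and without Snf1-I132G replicate 1 (0.079), Snf1 replicate 1 (0.073) or Snf1 replicate 2 (0.22). The genes that set the level of fructose-2,6-bisphosphate, an inhibitor of Fbp1, split: the kinase gene PFK26 fell, at -1.90 ± 0.16 (0.0027), and so did the phosphatase gene FBP26, at -0.92 ± 0.17 (0.015), and the kinase gene PFK27 rose by 0.97 ± 0.22 (0.026). Of the pyruvate carboxylase genes, which feed oxaloacetate to Pck1, PYC2 rose from 987 and 946 to 1793 and 1796 (0.88 ± 0.14, adjusted p = 0.011), and PYC1 was at -0.68 ± 0.38 (0.23). In all 5 of these 9 genes rose and 2 fell, against 10.3% of all tested probe sets called higher and 17.5% called lower. The share that fell is near that of all probe sets. Without Snf1 replicate 1 the counts were 2 and 1, and without Snf1 replicate 2 they were 0 and 1.

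The GID ubiquitin ligase marks Fbp1, Pck1, Icl1 and Mdh2 for breakdown when glucose returns. Of its 8 genes 5 fell and 3 did not pass, against 17.5% of all tested probe sets called lower. Their median was -0.87, against -0.16 over all tested genes. UBC8, the ubiquitin-conjugating enzyme gene, went from 1091 and 1164 to 308 and 183, by -2.17 ± 0.26 (limma adjusted p = 0.0051), with a probe set whose name marks probes shared between transcripts. VID28 went from 324 and 348 to 111 and 82.8, by -1.65 ± 0.20 (0.0052). GID7, VID30 and GID8 fell, at -1.06 ± 0.27 (0.036), -1.05 ± 0.28 (0.041) and -0.57 ± 0.15 (0.044). VID24, the subunit that recognises the substrates, was at -0.11 ± 0.37 (0.84), and its arrays ran from 1247 to 2520 in Snf1-I132G and from 1588 to 2310 in Snf1. Its sign turned with each array centred on its median. The list had 3 falls with quantile normalization or median centring, where the VID30 and GID8 calls were absent. With the GID7 call absent too it had 2 without a filter, without Snf1-I132G replicate 2 or without Snf1 replicate 2.

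**Figure D5:**
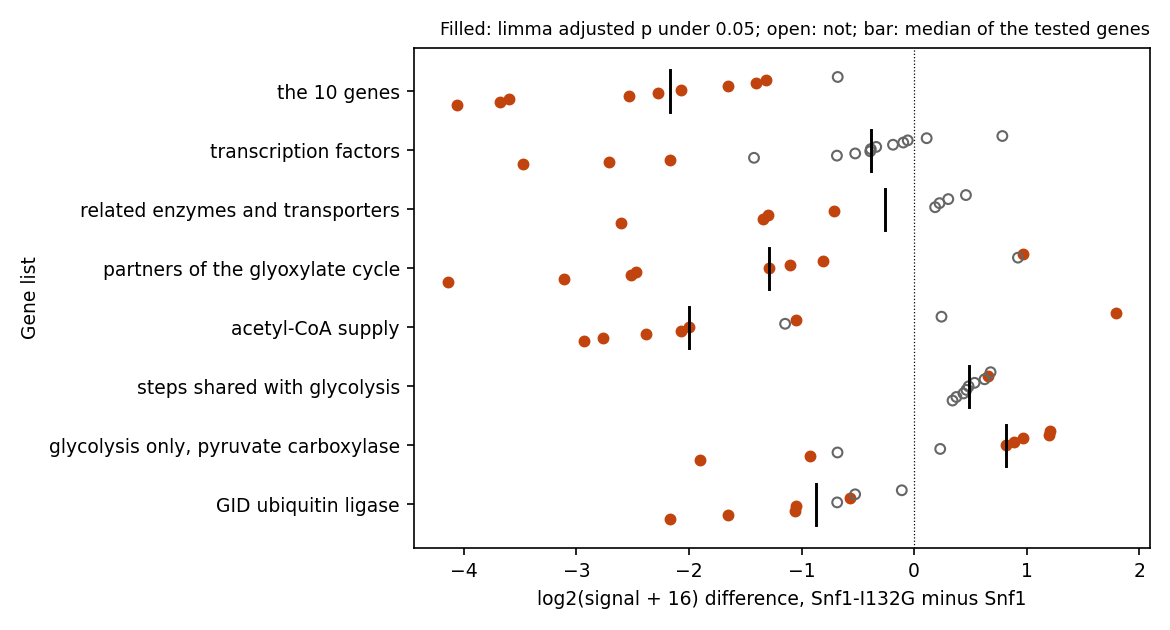
Log2(signal + 16) difference, Snf1-I132G minus Snf1, of every tested gene of the 10 and of 7 lists of related genes, filled where limma's adjusted p was under 0.05 and open otherwise, with a bar at the median. The median is -2.17 for the 10 genes, -2.00 for acetyl-CoA supply, 0.48 for the steps shared with glycolysis and 0.81 for the list of glycolysis and pyruvate carboxylase.

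Across all genes, the profiles most like the mean profile of the 10 were those of MAL33, SOD2, UGX2, YNL115C and RTC3. Likeness was the Euclidean distance over the 4 arrays between log2(signal + 16) profiles, each centred on its own mean, among 5189 tested genes outside the set. The distances were 0.13 for MAL33, a maltose activator gene, 0.18 for SOD2, the mitochondrial superoxide dismutase gene, 0.22 for UGX2, 0.23 for YNL115C and 0.27 for RTC3. Each of the 10 genes lay farther from their mean, from 0.63 for MDH2 to 1.77 for ICL2. The 5 genes were picked for small distance and the 10 were not, so these distances are not a like comparison. The 5 nearest genes were lower by between -2.23 and -2.45 on the log2 scale.

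The kinase gene was measured at similar levels in the groups. SNF1 had 981 and 1015 in Snf1 and 797 and 889 in Snf1-I132G, and since the allele changes the protein, this does not check the labels. Array medians were 131.9 and 139 in Snf1-I132G and 152 and 161 in Snf1, and log2 signals correlated at 0.976 and 0.981 within the groups and at 0.900 to 0.920 between them across probe sets, which are not independent. With 2 arrays a group, the number of arrays limits the precision of every value.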

How the data were processed

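The authors' deposited table holds a signal intensity on a linear scale for each probe set and array, computed with MAS5 according to the submitters' processing notes. The software version and the detection calls are not given in the sources used here. Each array had been scaled before deposit: with 2% of values trimmed at both ends, its mean was 500.4 to 500.5. A shift of most transcripts in one direction would therefore appear partly as an opposite shift of the rest. The platform annotation gave 1 gene for 6504 of the 9275 non-control probe sets, several for 328 and none for 2443, and names were used for the first kind alone. RefSeq's gene table held all 6504, with 0 changed symbols.

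Tests used log2(signal + 16). After removal of 60 control probe sets, 6956 probe sets whose mean reached the 25th percentile (35.01) were tested, standing for 5199 genes, each at its brightest probe set. Groups were compared with limma 3.58.1 in R 4.3.3 (lmFit, eBayes with an intensity trend, 2 residual degrees of freedom), with Benjamini-Hochberg adjustment over all tested probe sets and a threshold of 0.05. The fit was tested on simulated data with independent noise on each array. Its error rate was therefore not tested under correlation between arrays. Same-numbered arrays were paired by a string their file labels share, and their deviations from the group means correlated at r = 0.513 across probe sets.

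Named genes were the 10 members, 7 lists of 68 related genes (transcription factors and relatives in full, of the others at least the 4 with the smallest p) and the 5 nearest profiles. Members and lists were chosen with earlier results of these data known, so their direction is not independent evidence, and no list was tested as a whole. Alternatives were the pair as a block, values within each pair, quantile normalization, centring on the median or on 9 hybridization control probe sets, added constants of 1 and 64, filtering at the 50th percentile or not at all, eBayes untrended or robust, and leaving out each array, which assumes that the lone array left in a group varies as the other group does.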

Additional observations from a re-analysis of the deposited data

How the results depend on the processing

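In all settings run, each of the 10 genes tested in that setting kept a negative difference. The call was lost 4 times (ACS1 with quantile normalization, with median centring and without Snf1 replicate 2, and MLS1 without Snf1 replicate 2) and gained 2 times (ICL2 with the pair as a block and without Snf1-I132G replicate 1), and the other 152 values did not cross the threshold or were pair values with no test. Between 7 and 10 of the genes were called lower when an array was left out, the 7 being without Snf1 replicate 2, and a filter at the 50th percentile left 8 genes tested. With the pair as a block (paired analysis), 1986 probe sets were lower and 1356 higher, 6 transcription factors fell and 1 rose, 1 relative (IDP1) rose, 2 partners of the glyoxylate cycle rose and 8 enzymes shared with glycolysis rose. The block leaves 1 residual degree of freedom, and it moved no other count of calls by over 1.5 times. Scaling moved the median of all tested probe sets from -0.10 as deposited to 0.02 with quantile normalization, 0.09 with median centring and -0.31 with centring on hybridization controls, so the members' median of -2.17 became -2.07, -1.98 and -2.39, and rises were 36.9%, 47.5%, 54.5% and 19.3% of calls. Probe sets called lower numbered 802 with median centring and 2049 with centring on hybridization controls, where 8 transcription factors fell. GID falls numbered 3 with quantile normalization, 3 with median centring and 2 without a filter. The TDH1 call was absent with quantile normalization (difference 0.33), with centring on hybridization controls (0.42), without a filter and without the trend. The CIT2 call was absent with centring on hybridization controls (difference 0.73) and without a filter. The causes were not tested.

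Leaving out 1 array at a time gave 466 to 1061 probe sets lower and 337 to 663 higher, with fewer samples in each fit. The fewest lower were without Snf1 replicate 2, and 524 were lower without Snf1 replicate 1. Over the same 4 fits falls ranged from 3 to 5 among transcription factors, 3 to 7 in acetyl-CoA supply, 1 to 3 in the glycolysis and pyruvate carboxylase list and 2 to 4 in the GID list. Rises ranged from 0 to 1 among transcription factors, 0 to 2 among glyoxylate partners, 0 to 2 among shared glycolytic enzymes and 0 to 4 in the glycolysis and pyruvate carboxylase list. Sign turns occurred in genes that were not called. Within pair 1 MIG3 was at -0.52 and PYK2 at -0.14, and within pair 2 MIG2 was at 0.020, DAL7 at -0.053 and VID24 at 0.12. ERT1 was at 0.10 with quantile normalization. With median centring ERT1 was at 0.085, MIG2 at 0.15, HAP5 at 0.0057 and VID24 at 0.094. With centring on hybridization controls MIG3 was at -0.073, ACS2 at -0.044, ATO3 at -0.0089 and PYK2 at -0.0014. With an array left out, MIG2 ranged from -0.17 to 0.060, MIG3 from -0.64 to 0.86, ACS2 from -0.11 to 0.48, ATO3 from -0.042 to 0.49, YAT2 from -0.12 to 0.61 and VID24 from -0.61 to 0.39. The signal over background limits FBP1, MLS1, ADY2, CAT8, SFC1 and CIT3, whose Snf1-I132G means lay below the filter signal of 35.01. It also limits SIP4 and DAL7, whose Snf1 means (26.6 and 30.1) lay below that signal. The fold sizes of all these genes depend on the added constant. Differences of brighter members moved too, with IDP2 at -3.98 with 1 added and -3.03 with 64, and JEN1 at -1.55 with 64.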

Other observations

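Replicate arrays of Snf1-I132G differed by more than 1.5-fold for 5 of the 10 genes, against 18.4% of tested probe sets, and those of Snf1 for 3 of the 10, against 10.1%. The limit of 1.5-fold was chosen after the values were seen. In Snf1-I132G the enzyme genes ACS1, ICL2 and MDH2 were higher in replicate 1, by 2.49-fold, 2.10-fold and 1.95-fold, and the transporter genes ADY2 and JEN1 were higher in replicate 2, by 1.97-fold and 1.93-fold. Of the 9 genes of acetyl-CoA supply, ALD6, YAT1, CRC1, ADH2 and YAT2 were higher in Snf1-I132G replicate 2, by 4.64-fold, 3.12-fold, 2.45-fold, 1.84-fold and 1.71-fold. CAT2, ACH1 and ALD5 were 1.48-fold, 1.30-fold and 1.15-fold higher there, and ALD4 was 1.08-fold higher in replicate 1. In the same arrays PCK1, FBP1 and IDP2 were within 1.10-fold. In Snf1 the wide gaps were those of FBP1, at 2.27-fold, ADY2, at 1.98-fold, and MLS1, at 1.60-fold, each higher in replicate 2.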
